A study of Mus musculus with 25 samples.

Results

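The fibroblast and stellate cell genes described here are 10 of the 24984 genes of the count table: Pdgfra, Pdgfrb, Acta2, Des, Fap, Pdpn, Thy1, Postn, Lrat and Reln. They were found by their gene symbols, a rule with no threshold on a measured value, though the list was drawn up with earlier results of these data known. Each was present once in the table. The study compared mouse liver progenitor cells that express different amounts of an oncogene, in culture and in tumours, and asked how the liver and the peritoneum differ as places for the same tumour cells to grow.

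Polyadenylated RNA was sequenced from 25 libraries. The 9 cultured libraries came from BMEL cells, bipotential progenitors isolated from the embryonic liver of a C57B/6_C3H mouse and derived from a clone, as 3 libraries with an empty vector (BMEL WT), 3 with low (RasLOW) and 3 with high (RasHIGH) expression of HRasG12V, an oncogenic form of human H-Ras. That vector also makes a fluorescent protein, by which the RasLOW and RasHIGH populations were sorted. The 16 other libraries came from 4 athymic nude mice, animals that lack mature T cells, injected in the liver with BMEL-Ras cells. The labels do not say which Ras population grew in them, and they give no age. From each mouse a liver tumour and a peritoneal tumour were dissociated and sorted into tumour cells, positive for the fluorescent protein, and stroma, negative for it. This gave 4 libraries each of liver stroma, peritoneal stroma, liver tumour cells and peritoneal tumour cells. The stroma may therefore hold any host cell that survived dissociation, as well as cells without fluorescence.

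Fibroblasts build and remodel the matrix of connective tissue, and in tumours they often take on a contractile, matrix-producing state. Hepatic stellate cells are the resident mesenchymal cells of the liver: at rest they store vitamin A, and after injury they become myofibroblasts, which contract and lay down collagen. Platelet-derived growth factors, which many epithelial and tumour cells release, act on such cells through the receptors encoded by Pdgfra and Pdgfrb.

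Total counts were 23129017 to 51241336 in the sorted libraries and 20818989 to 28205198 in the cultured ones. A level is given in CPM, the counts of a gene over the library's total times 1e6, after scaling for composition, and 3 counts corresponded to 0.0576 to 0.141 CPM in the sorted libraries. The sort was checked with marker lists: the summed level of 4 epithelial tumour genes was 5476 to 6982 CPM in liver tumour cells and 6617 to 8620 CPM in peritoneal tumour cells, against 902 to 1196 CPM in liver stroma and 556 to 874 CPM in peritoneal stroma. Gene by gene, in the test described below, 3 of these 4 were called higher and 1 lower in tumour cells than in stroma at both sites. A sum of 4 cultured progenitor genes did not separate the sorts. In tumour cells it was 48.4% to 102% of that in stroma in the liver and 23.5% to 161% in the peritoneum. The summed level of 4 pan-leukocyte genes was 3151 to 3866 CPM in liver stroma and 2067 to 2520 CPM in peritoneal stroma, so both stromal sorts held leukocytes beside mesenchymal cells.

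The upstream windows of 4 genes are printed because they stand for the different roles among the members: Acta2 and Des, which code for parts of the contractile and filament system, Postn, the gene with the greatest site difference, and Lrat, the retinoid enzyme. Each window is the 250 bases before a RefSeq start in GRCm38.p6, 5′ to 3′ on the strand of the gene. Capitals mark matches to the motifs searched, which were the CArG box (CC, then 6 bases that are A or T, then GG), the CArG-like form in which 1 of those 6 may be C or G, TATAAA and CATTCC, the core of TEAD binding sites, on both strands.
Acta2, chr19:34255374-34255623, minus strand: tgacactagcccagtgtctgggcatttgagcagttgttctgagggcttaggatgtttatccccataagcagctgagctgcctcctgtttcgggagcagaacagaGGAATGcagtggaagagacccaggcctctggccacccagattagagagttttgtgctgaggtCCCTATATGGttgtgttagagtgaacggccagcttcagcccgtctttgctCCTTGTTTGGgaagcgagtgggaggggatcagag
Des, chr1:75360042-75360291, plus strand: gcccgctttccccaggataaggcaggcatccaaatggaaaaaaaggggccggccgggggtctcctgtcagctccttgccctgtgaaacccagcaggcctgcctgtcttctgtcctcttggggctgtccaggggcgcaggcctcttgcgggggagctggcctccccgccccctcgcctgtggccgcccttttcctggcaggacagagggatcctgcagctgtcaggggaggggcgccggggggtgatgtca
Postn, chr3:54360857-54361106, plus strand: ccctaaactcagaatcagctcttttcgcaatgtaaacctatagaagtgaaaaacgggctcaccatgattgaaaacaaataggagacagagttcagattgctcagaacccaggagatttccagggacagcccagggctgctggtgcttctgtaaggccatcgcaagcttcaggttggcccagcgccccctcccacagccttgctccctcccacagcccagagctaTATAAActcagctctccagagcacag
Lrat, chr3:82903975-82904224, minus strand: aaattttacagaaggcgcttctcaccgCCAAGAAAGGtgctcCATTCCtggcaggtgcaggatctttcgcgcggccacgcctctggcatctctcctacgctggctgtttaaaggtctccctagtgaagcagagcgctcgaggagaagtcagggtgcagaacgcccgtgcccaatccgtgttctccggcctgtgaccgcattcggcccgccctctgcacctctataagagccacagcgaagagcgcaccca

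CArG boxes are bound by serum response factor, a regulator of muscle and cytoskeletal genes. No window of the members held the strict CArG box, which was in 1.47% of 32851 windows of this length. The Acta2 window held CArG-like matches 84 to 75 and 34 to 25 bases before the start and CATTCC 146 to 141 bases before it. More than 1 CArG-like match was in 0.67% of all windows, and at least 1 was in 8.59%. The CArG-like form was added after the windows had been looked at. Lrat held a CArG-like match 223 to 214 bases and CATTCC 208 to 203 bases before its start, the printed Postn window held TATAAA 26 to 21 bases before its start, and Des held none. Another Postn window, chr3:54359017-54359266, held no match and is not printed. TATAAA was in 12.4% and CATTCC in 12.6% of all windows. The table of windows had 7 of the 10 members, with 8 windows, of which 3 held any match, and the matches are descriptions of letters only.

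Because a long gene yields more counts, levels of different genes were compared per kilobase of exon. Acta2 led in liver stroma with a mean of 54.6 CPM per kb, followed by Pdgfrb with 21.5 and Thy1 with 18.5 CPM per kb. Postn had 7.61 CPM per kb there, and it led in peritoneal stroma with 230 CPM per kb, ahead of Acta2 with 180 and Thy1 with 148 CPM per kb. The ranges over the 4 mice overlapped between most neighbours in these orders. In liver stroma only Des (4.64 CPM per kb) and Fap (1.05), and Fap and Lrat (0.141), stood apart. In peritoneal stroma the gaps lay between Thy1 and Pdgfrb (69.3), between Pdgfra (57.1) and Fap (10.6), between Des (7.85) and Reln (0.474), and between Reln and Lrat (0.0234).

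**Figure D1:**
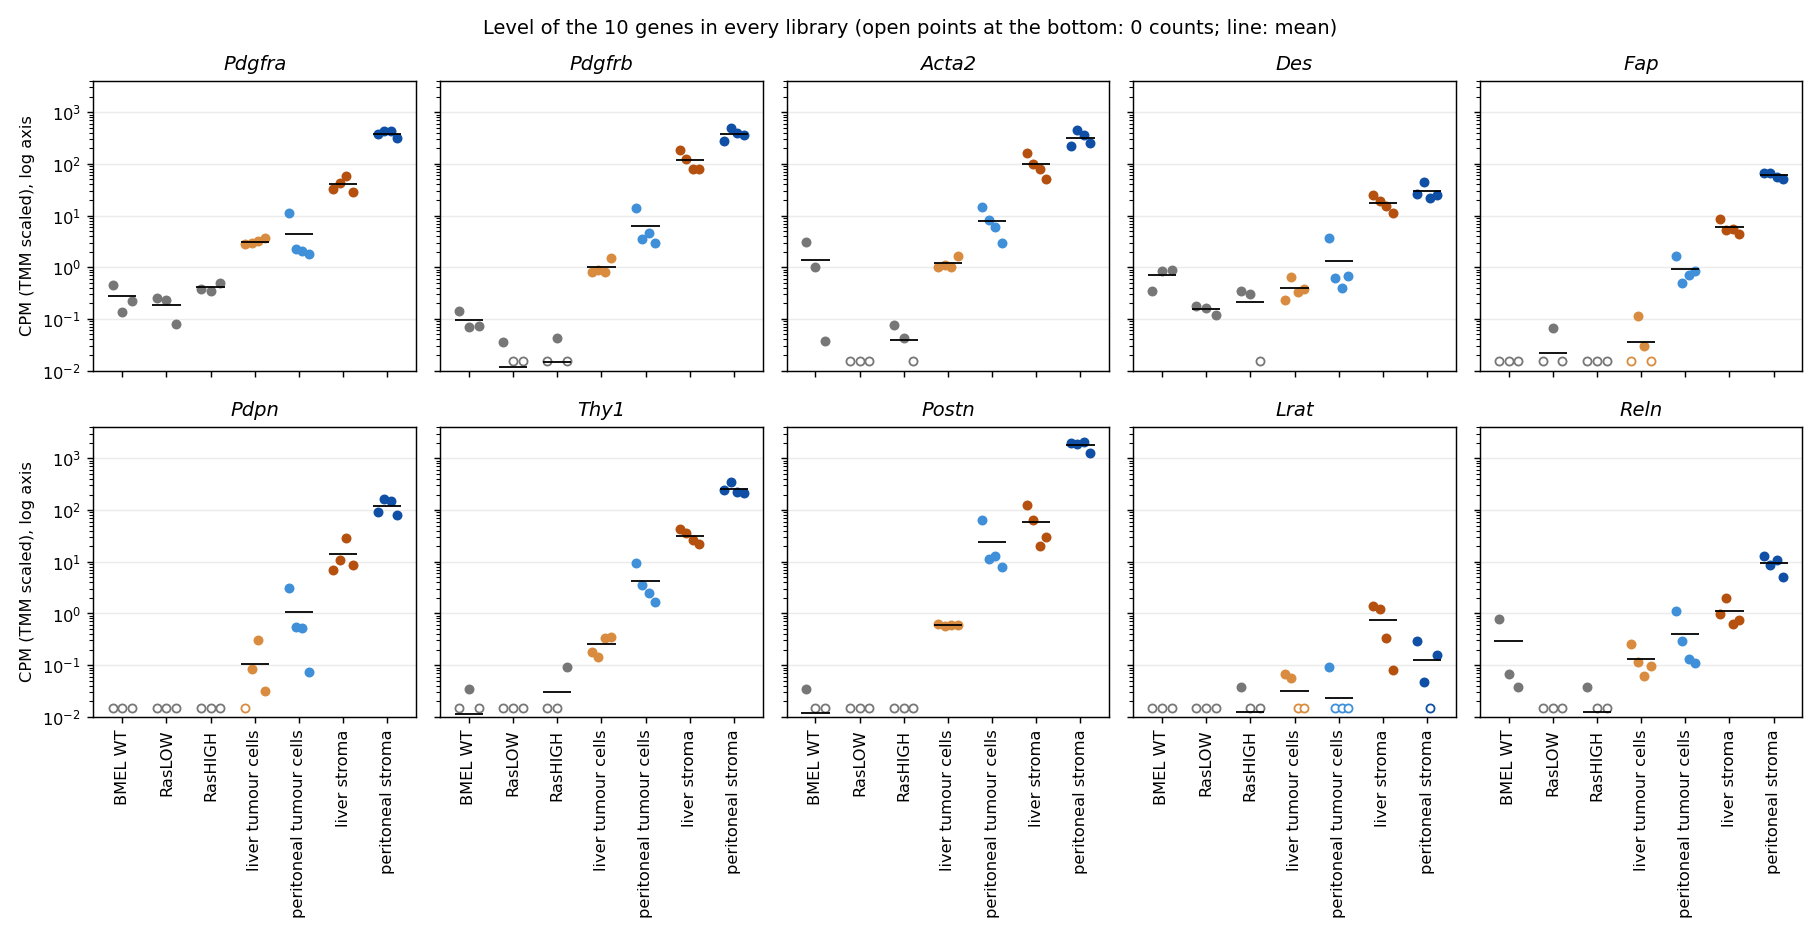
Levels of the 10 genes in the sorted and cultured libraries, in CPM on a log axis, with 1 point for each library, a line at the mean and open points at the bottom for libraries with 0 counts. Peritoneal stroma is above liver stroma for Postn, Pdgfra, Fap and Thy1 in every library, and Lrat is near the floor outside liver stroma.

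The first comparison was between the stroma of liver and peritoneal tumours. Of the 9 members with enough counts to be tested, 8 were lower in liver stroma, by 3.32-fold to 31.0-fold, and Des was below in the mean without passing the test. A gene was called with an adjusted p (Benjamini-Hochberg) under 0.05 in the quasi-likelihood test of edgeR and an absolute log2 fold change over 1. Of all 14755 genes tested, 9.98% were called lower in liver stroma and 3.36% higher. The median log2 fold change was -3.13 over the tested members and 0.018 over all genes. In bulk samples, fewer cells of a type and less RNA per cell cannot be told apart.

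Pdgfra and Pdgfrb are the receptors for platelet-derived growth factors; Pdgfra marks most fibroblasts and Pdgfrb also pericytes and stellate cells. Pdgfra (chr5:75548316-75594229, plus strand, in mm9, as for the other gene positions) was at 32.1, 42.1, 58.5 and 28.4 CPM in the liver stroma of mice 1 to 4. In their peritoneal stroma it was at 369, 433, 422 and 313 CPM. All 4 peritoneal libraries were well above all liver ones, and the log2 fold change of liver over peritoneum was -3.30 (SE 0.23, adjusted p = 8.18e-06). Pdgfrb (chr18:61204804-61244715, plus strand) was at 189, 122, 81.0 and 80.1 CPM in liver stroma. It was at 280, 489, 390 and 360 CPM in peritoneal stroma. Mouse 1 had the highest liver value and the lowest peritoneal value, and the ranges did not overlap. The log2 fold change was -1.73 (SE 0.29, adjusted p = 0.00153), and within mouse 1 the difference was only -0.57 on the log2 scale.

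Acta2 encodes smooth muscle actin, the usual mark of myofibroblasts, and Des encodes desmin, an intermediate filament of muscle and of rodent stellate cells. Acta2 (chr19:34315580-34329826, minus strand) was at 159, 99.6, 80.1 and 50.9 CPM in liver stroma. In peritoneal stroma it was at 219, 449, 359 and 258 CPM. The ranges were separate, mouse 1 again being closest between the sites (-0.46 on the log2 scale within that mouse), and the log2 fold change was -1.77 (SE 0.34, adjusted p = 0.00356). Des (chr1:75356904-75365154, plus strand) was at 24.4, 19.2, 14.96 and 11.1 CPM in liver stroma and 26.6, 44.4, 21.9 and 25.05 CPM in peritoneal stroma. The Des ranges overlapped, since the liver value of mouse 1 lay above the peritoneal value of mouse 3. The log2 fold change of -0.80 (SE 0.28, adjusted p = 0.0516) was not called. Des was lower in liver in 4 of 4 mice. With the mouse as a block its adjusted p was 0.0212, but its log2 fold change of -0.81 stayed below the size needed for a call. Over all alternatives its adjusted p ran from 0.0156 to 0.252. Without the liver stroma library of mouse 1, Des was called, with a log2 fold change of -1.01 and an adjusted p of 0.0262.

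Parts of Acta2 are nearly identical to Acta1 and Actg2, the actins of skeletal and enteric muscle, and how reads shared among them were counted is not given in the sources used here. Acta1 was at 36.5, 7.40, 3.71 and 10.4 CPM in peritoneal stroma and at most 0.357 CPM in liver stroma. Actg2 was at 6.39, 20.4, 13.4 and 6.44 CPM in peritoneal stroma and 9.06, 4.14, 1.503 and 2.34 CPM in liver stroma. Both were below Acta2 in every stromal library. The exons of Des, Lrat and Reln touch transcripts of the opposite strand in the mm9 annotation (Gm15179, 4930564K09Rik and Gm10475), and without a stated strand setting the reads cannot be told apart.

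Fap, Pdpn and Thy1 encode surface proteins of fibroblasts: a protease of activated fibroblasts, podoplanin, which lymphatic endothelium and mesothelium also carry, and a small anchored glycoprotein also found on T cells and neurons. Fap (chr2:62339000-62412132, minus strand) was at 8.58, 5.19, 5.60 and 4.48 CPM in liver stroma and at 65.1, 67.9, 56.6 and 50.3 CPM in peritoneal stroma. Its log2 fold change was -3.36 (SE 0.21, adjusted p = 4.85e-06), with a narrow spread at both sites and no overlap. Pdpn (chr4:142857334-142889467, minus strand) was at 6.98, 10.7, 29.5 and 8.69 CPM in liver stroma and at 89.9, 162, 149 and 82.0 CPM in peritoneal stroma. Mouse 3 stood above the other liver libraries, yet below every peritoneal library, and the log2 fold change was -3.16 (SE 0.46, adjusted p = 6.66e-04). Thy1 (chr9:43851467-43856662, plus strand) was at 43.1, 36.3, 26.5 and 22.6 CPM in liver stroma and at 247, 342, 227 and 211 CPM in peritoneal stroma. The ranges were separate, with a log2 fold change of -3.04 (SE 0.24, adjusted p = 1.47e-05).

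Postn encodes periostin, a matrix protein made by fibroblasts that remodel tissue. Postn (chr3:54165031-54194961, plus strand) was at 125, 64.0, 20.2 and 29.8 CPM in liver stroma. In peritoneal stroma it was at 1945, 1915, 2095 and 1249 CPM. The 4 peritoneal libraries lay far above the liver ones, among which mice 1 and 2 were higher than mice 3 and 4. The log2 fold change was -4.95 (SE 0.57, adjusted p = 1.56e-04), which is 31.0-fold.

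Lrat encodes the enzyme that esterifies retinol for storage and marks resting stellate cells, and Reln encodes reelin, a large secreted glycoprotein that stellate cells of the liver express. Lrat (chr3:82696501-82707895, minus strand) had 52, 35, 10 and 2 counts in the liver stroma of mice 1 to 4 and 8, 1, 0 and 4 counts in peritoneal stroma, or 1.36, 1.23, 0.342 and 0.0793 CPM against 0.299, 0.0469, 0 and 0.155 CPM. It was the only member with the higher liver value in most mice, 3 of 4, the ranges overlapped through mouse 4, and it did not pass the filter on low counts. With no such filter its log2 fold change was 2.503 and did not pass (adjusted p = 0.0803). Reln (chr5:21390272-21850523, minus strand) was at 0.997, 2.03, 0.615 and 0.754 CPM in liver stroma and at 13.1, 8.62, 10.7 and 5.16 CPM in peritoneal stroma. Unlike Lrat it was lower in liver, in 4 of 4 mice and without overlap, with a log2 fold change of -3.13 (SE 0.41, adjusted p = 3.75e-04).

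Markers of other cell types also moved with the site. In liver stroma the summed level of 5 hepatocyte genes was 24.5 to 204 CPM, against 0.450 to 1.90 CPM in peritoneal stroma, and all 4 that could be tested were called higher. Of the endothelial genes 3 of 6 were called higher in liver stroma, with sums of 540 to 1187 against 326 to 488 CPM, and of the NK cell genes 3 of 4, with sums of 32.6 to 45.6 against 11.2 to 19.2 CPM. Skeletal muscle genes were called lower in liver for 2 of the 4 tested, with sums of 6.98 to 9.77 against 13.2 to 67.5 CPM. The 5 macrophage genes summed to 2610 to 3020 CPM in liver and 1755 to 2909 CPM in peritoneal stroma. The mesothelial list, which bears on Pdpn, had 1 of 6 genes called lower and sums of 400 to 476 CPM in liver and 251 to 321 CPM in peritoneal stroma. Its sum in liver tumour cells was 550% to 656% of that in stroma, so the sum does not mark mesothelium alone here. Gene by gene, 4 of the 6 were called lower in liver tumour cells than in liver stroma and 2 higher. Of the 3 lymphatic endothelial genes tested, 1 was called higher and 1 lower, with sums of 127 to 287 against 65.6 to 232 CPM. Of 4 T cell genes tested 1 was called lower, with sums of 7.37 to 10.3 against 10.98 to 22.1 CPM, which bears on Thy1. The part of these markers in the members' differences was not tested.

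The members did not shift in equal measure. As a description with no test, each was set against Pdgfrb of the same library, as log2 of the ratio of CPM values with 0.1 CPM added, and the mean of the 4 liver libraries minus that of the 4 peritoneal ones was taken. Acta2 kept nearly the same ratio at both sites, with a difference of -0.03 and overlapping ranges. Des stood higher relative to Pdgfrb in liver, by 0.99, without overlap. Thy1, Pdgfra and Fap stood lower in liver, by -1.26, -1.54 and -1.59, and Postn by -3.48, all without overlap. Pdpn (-1.53) and Reln (-1.29) overlapped. For Lrat the difference was 3.42, a value that rests on few counts and on the added 0.1 CPM.

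**Figure D2:**
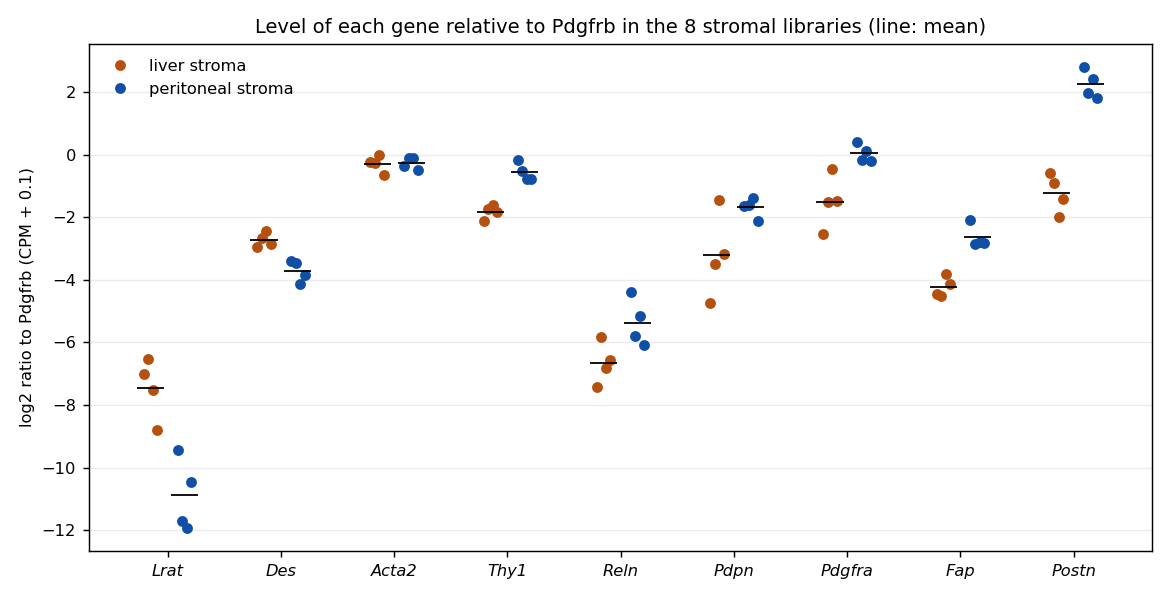
Log2 ratio of each gene to Pdgfrb in the stroma of the 4 mice, with liver and peritoneum apart, 1 point for each library, a line at the mean and 0.1 CPM added to each value. Postn lies above Pdgfrb in all peritoneal libraries and below it in all liver libraries, Acta2 lies at the same height at both sites, and Des and Lrat lie higher in liver.

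Genes that work with the members were described from 5 lists of 62 genes, all in the table. Of the pan-fibroblast and portal fibroblast genes, all 13 tested were called lower in liver stroma, with a median log2 fold change of -3.55. Among them were Pi16 (log2 fold change -2.73, adjusted p = 8.80e-07), Ly6a, which encodes Sca-1 (-4.43, adjusted p = 2.71e-06), and Entpd2, an enzyme that breaks down extracellular nucleotides (-5.00, adjusted p = 4.44e-06). Of the matrix and activation genes 12 of 14 were called lower, with a median of -2.89. Fbn1, which encodes fibrillin, was at 123 ± 33.4 CPM in liver and 2140 ± 475 CPM in peritoneal stroma (SD, n = 4), and Lox, a collagen cross-linking enzyme, was at 102 ± 26.2 and 1005 ± 107 CPM.

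Of the contractile and mural cell genes 5 of 14 were called lower in liver stroma, with a median of -1.25, among them Myl9, a myosin light chain (-2.61, adjusted p = 1.28e-04), Cspg4, the pericyte proteoglycan NG2 (-2.12, adjusted p = 1.48e-04), and Tpm2, a tropomyosin (-1.52, adjusted p = 1.48e-04). Of 12 hepatic stellate cell genes tested, 4 were lower in liver, with a median of -0.37. Dcn, which encodes decorin and is also made by fibroblasts elsewhere, had the lowest p of these (-3.59, adjusted p = 2.50e-05), and Cygb, cytoglobin, had 88.6 ± 24.9 CPM in liver against 208 ± 31.2 CPM in peritoneal stroma. No gene of this list was called higher in liver stroma, and 8 of the 12 tested were not called. The uncalled genes went both ways. Some had the higher mean in liver stroma, and those named here were chosen from these after their values were seen. Uncalled genes that were lower in liver stroma are not named, and the median of the list was below 0. Ngfr, a neurotrophin receptor, had 9.68 ± 2.30 against 6.23 ± 0.831 CPM, and its log2 fold change of 0.59 was below the size needed (adjusted p = 0.0339). Hand2, a transcription factor, had 4.43 ± 2.15 against 2.40 ± 0.241 CPM (adjusted p = 0.1001), and Adamtsl2 had 1.88 ± 1.03 against 1.31 ± 0.476 CPM (adjusted p = 0.445). Colec11 and Lhx2, at 1.31 ± 1.01 against 0.231 ± 0.0975 CPM and 0.582 ± 0.452 against 0.153 ± 0.0577 CPM, had too few counts to be tested. Of the PDGF ligands 1 of 4, Pdgfd, was lower in liver, at 1.15 ± 0.432 against 7.94 ± 3.21 CPM. The lists differ in level and size and were not tested against each other.

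**Figure D3:**
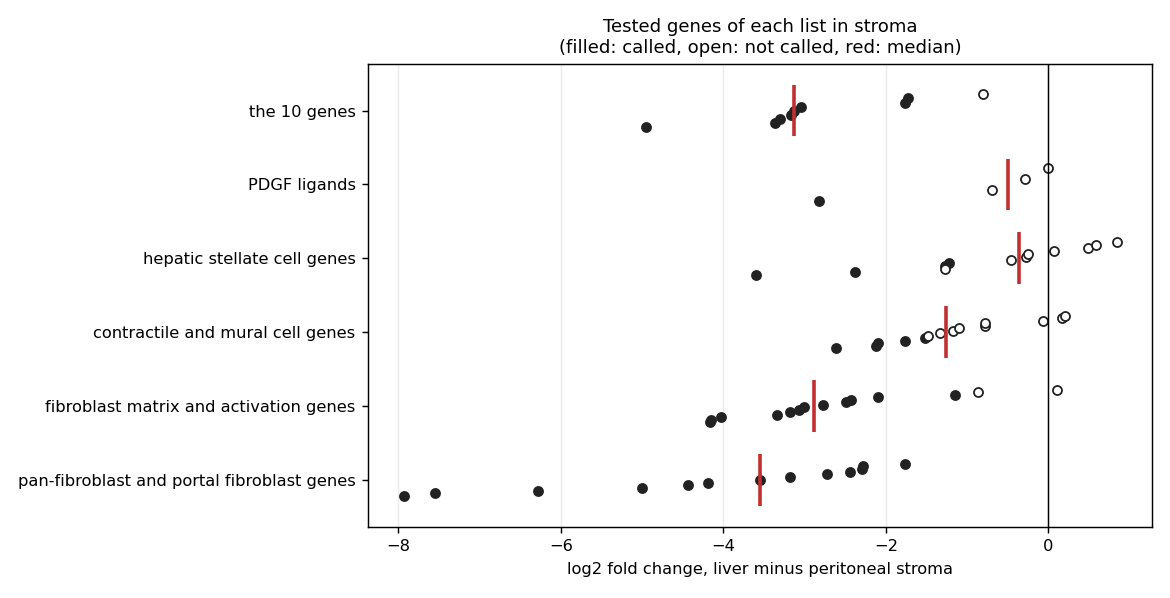
Log2 fold change of liver over peritoneal stroma for the members and the genes of the 5 lists, with 1 point for each gene tested, filled where called, and a bar at the median. The medians of the 5 lists run from -3.55 for the pan-fibroblast genes to -0.37 for the stellate cell genes.

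The second comparison was between tumour cells and stroma of the same site. At both sites, all 9 tested members were lower in tumour cells, and Lrat did not pass the filter on low counts at either. With no such filter, Lrat was called lower in liver tumour cells (log2 fold change -4.36, adjusted p = 9.15e-04). It was not called in the peritoneum (-2.32, adjusted p = 0.169). Of all genes tested, 27.5% were called lower in tumour cells than stroma in the liver and 16.4% higher, and in the peritoneum 27.4% were lower and 16.2% higher. In the liver, Des, Fap, Pdpn, Thy1 and Reln passed the filter on low counts through the stromal libraries, where they are high. In the peritoneum this held for Pdpn and Reln. The counts of members called carry no further weight. The sizes of the differences varied between members and sites.

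In the liver, Pdgfra was at 2.76, 2.94, 3.15 and 3.62 CPM in the tumour cells of mice 1 to 4, and its log2 fold change over stroma was -3.72 (SE 0.22). Pdgfrb was at 0.798, 0.876, 0.818 and 1.54 CPM and Acta2 at 1.004, 1.10, 0.9996 and 1.66 CPM, with log2 fold changes of -6.92 and -6.39. The tumour cell libraries of mice 1 to 3 were close to each other. Mouse 4 was highest for all 3 genes and stood above the others for Pdgfrb and Acta2. Thy1 was at 0.182, 0.141, 0.333 and 0.352 CPM, Postn at 0.639, 0.565, 0.606 and 0.608 CPM and Des at 0.228, 0.650, 0.333 and 0.384 CPM. Fap had 0, 4, 1 and 0 counts, at or near the floor. The log2 fold changes of Des, Fap, Pdpn, Thy1, Postn and Reln were -5.49, -7.30, -7.11, -7.04, -6.65 and -3.01.

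In the peritoneum the tumour cell library of mouse 1 was above the others for every member. Pdgfra was at 11.1, 2.26, 2.04 and 1.81 CPM, Pdgfrb at 14.2, 3.56, 4.63 and 2.92 CPM, and Acta2 at 14.7, 8.13, 6.03 and 2.99 CPM. Postn was at 62.9, 11.2, 13.1 and 7.97 CPM and Thy1 at 9.33, 3.59, 2.52 and 1.70 CPM. Des was at 3.62, 0.625, 0.403 and 0.664 CPM, Fap at 1.62, 0.489, 0.691 and 0.849 CPM and Pdpn at 3.15, 0.544, 0.518 and 0.0738 CPM. The log2 fold changes over stroma were -6.42 for Pdgfra, -5.84 for Pdgfrb, -5.27 for Acta2, -4.43 for Des, -5.99 for Fap, -6.76 for Pdpn, -5.84 for Thy1, -6.18 for Postn and -4.48 for Reln. In this library of mouse 1 the summed macrophage genes were at 117 CPM against 20.0 to 25.5 CPM in the other peritoneal tumour cell libraries, the skeletal muscle genes at 12.8 against 0.998 to 1.37 CPM, and the leukocyte genes at 75.3 against 26.3 to 56.8 CPM. Their part in the members' levels was not tested.

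**Figure D4:**
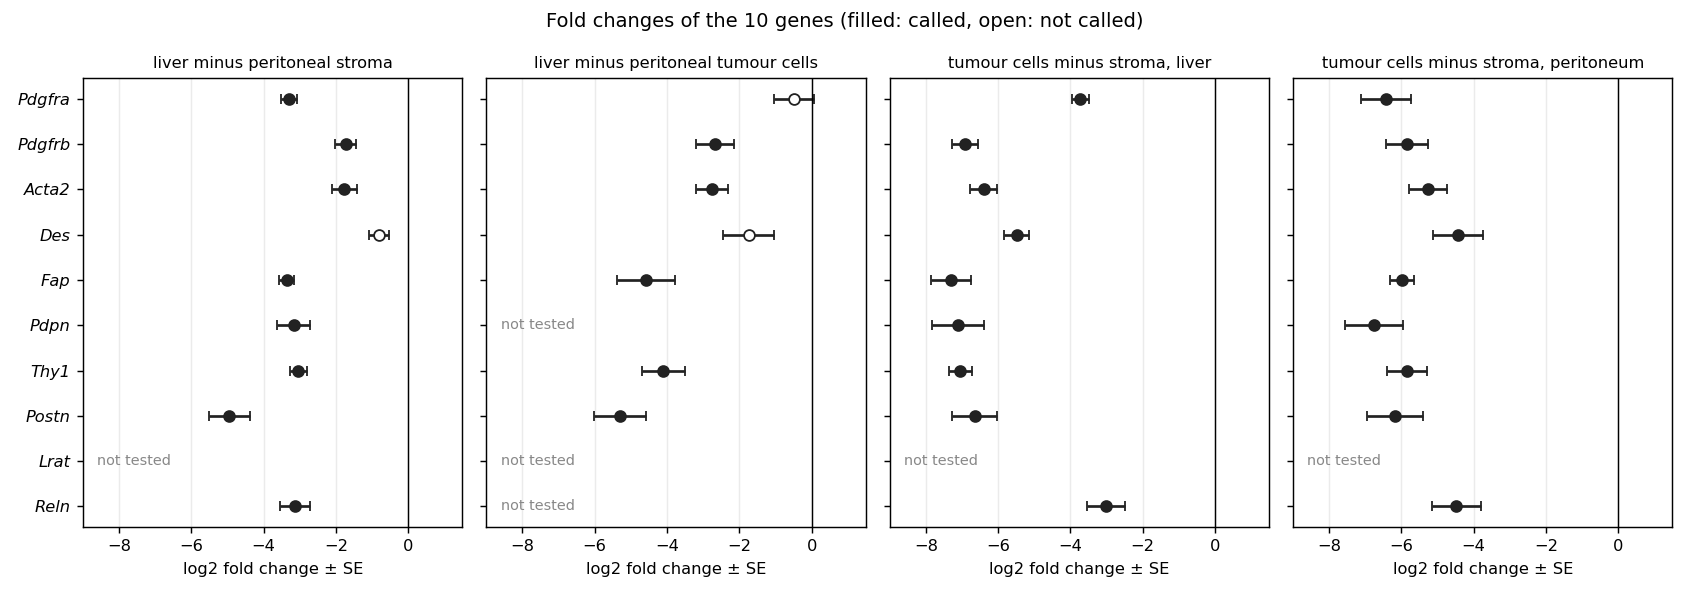
Log2 fold changes of the members in the 4 comparisons of sorted cells, with standard errors as bars and filled points for those called. Differences between tumour cells and stroma exceed those between the stroma of the sites for most members, and Reln in the liver, with -3.01 against -3.13, is an exception.

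To set the members beside the leukocytes that a sort should remove, the level in tumour cells was taken as a percent of the stroma of the same tumour. In the liver the median over the 4 mice was 0.865% for Pdgfrb, 1.18% for Acta2, 0.840% for Thy1 and 1.46% for Postn, and for the summed leukocyte genes it was 1.84% with a range of 1.52% to 2.42%. Pdgfra had a median of 7.78% (5.39% to 12.7%) and Reln one of 11.3% (5.56% to 25.2%). Both were above the leukocyte range in every mouse, but Reln rests on few counts. It had 11, 4, 2 and 3 counts in the liver tumour cells of mice 1 to 4. The summed endothelial genes were at 9.21% to 31.8%, a sum that rests on Cdh5, which had 126 ± 68.5 CPM in liver tumour cells and 175 ± 64.3 CPM in liver stroma (SD, n = 4). Gene by gene, the median log2 fold change of liver tumour cells over stroma was -8.41 for the 4 leukocyte genes, -7.63 for the 5 macrophage genes and -7.14 for the 6 endothelial genes, with Cd53 (-2.86) and Cdh5 (-0.50) apart from the rest of their lists. On that scale all 9 tested members, from -7.30 for Fap to -3.01 for Reln, lay above the leukocyte median, and Pdgfra and Reln were highest. Des had 2.81% and Fap 0.270%. In the peritoneum Pdgfra had a median of 0.549% (0.482% to 2.999%), and the summed leukocyte genes had 1.96%. Gene by gene the order differed there, since the leukocyte median log2 fold change of peritoneal tumour cells over stroma was -6.94. All 9 tested members, from -6.76 for Pdpn to -4.43 for Des, lay above it. The macrophage median was -6.07, with Pdpn, Pdgfra and Postn below it. There Pdgfrb was at 0.998%, Acta2 at 1.74%, Thy1 at 1.08%, Postn at 0.632% and Reln at 2.81%.

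**Figure D5:**
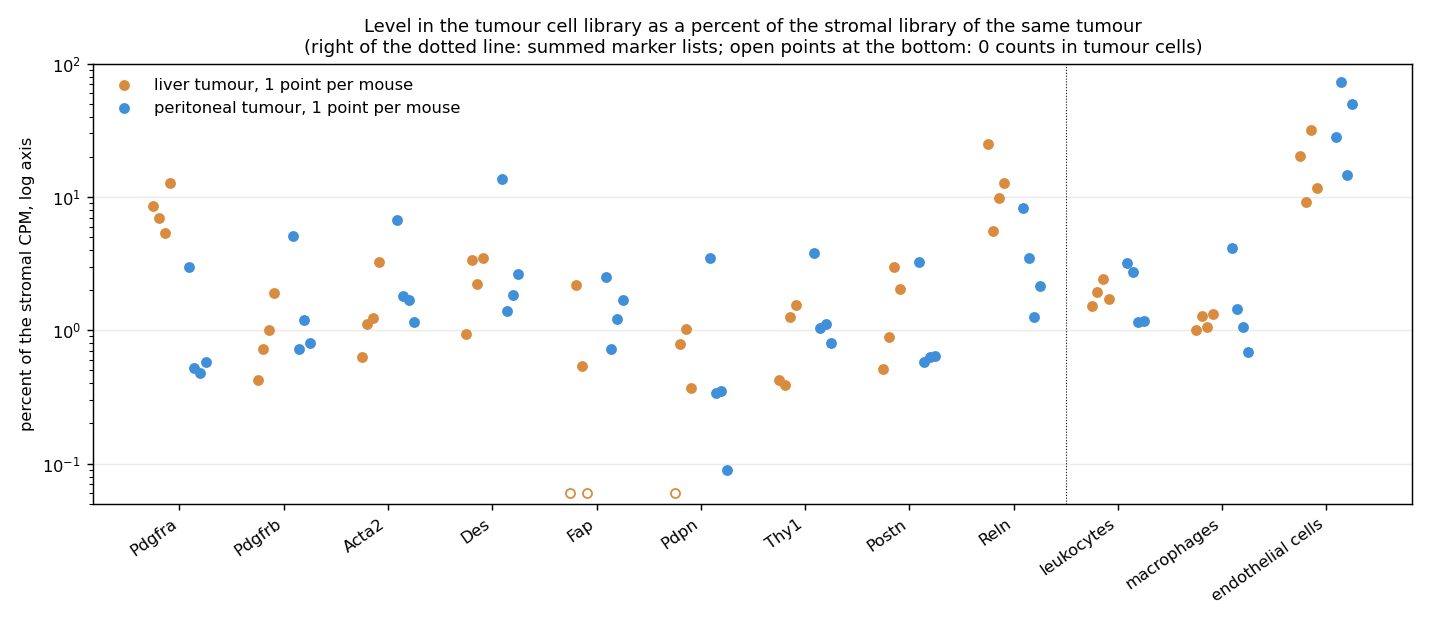
Level in tumour cells as a percent of the level in the stroma of the same tumour, on a log axis, for 9 members (Lrat is not shown) and for the summed leukocyte, macrophage and endothelial genes, with 1 point for each mouse and open points for 0 counts in tumour cells. In the liver Pdgfra and Reln lie above the leukocyte sum, Reln with few counts in tumour cells. The sums rest in part on Cd53 and Cdh5, whose log2 fold changes of -2.86 and -0.50 differ from those of the other genes of their lists.

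The ligands did not all follow the receptors. Of 4 PDGF ligand genes, 2 were called higher and 1 lower in tumour cells than in stroma at both sites. Pdgfa, whose product acts through the receptor encoded by Pdgfra, had 119 ± 15.4 CPM in the tumour cells of the liver, against 28.2 ± 5.79 CPM in liver stroma (SD, n = 4).

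The third comparison was between tumour cells of the liver and of the peritoneum. Of 7 members tested 5 were lower in liver tumour cells, where 0.765% of all 13074 genes tested were called lower. These were Postn with a log2 fold change of -5.31 (SE 0.73, adjusted p = 0.00828), Fap with -4.58 (SE 0.81, adjusted p = 0.0215), Thy1 with -4.10 (SE 0.60, adjusted p = 0.0115), Acta2 with -2.75 (SE 0.44, adjusted p = 0.0173) and Pdgfrb with -2.67 (SE 0.52, adjusted p = 0.0278). Fap and Thy1, near the floor in liver tumour cells, passed the filter through the peritoneal libraries. The peritoneal libraries lay above the liver ones for these 5 genes, with no overlap in the levels given above. With the mouse as a replicate block, Postn alone kept its call (-4.89, adjusted p = 0.0159), and Pdgfrb, Acta2, Fap and Thy1 had adjusted p of 0.0854, 0.0683, 0.0842 and 0.0534. With the sequencing lane as a term, Pdgfrb lost its call (adjusted p = 0.0518). Without the peritoneal library of mouse 1, all 5 were called. Without the liver tumour cell library of mouse 2, Fap alone was called, with adjusted p of 0.106, 0.0794, 0.0623 and 0.0555 for Pdgfrb, Acta2, Thy1 and Postn, without that of mouse 3 or of mouse 4 the count was 3, and without that of mouse 1 Pdgfrb lost its call (adjusted p = 0.0589).

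Des and Pdgfra were not called between tumour cells of the sites. Des had a log2 fold change of -1.74 (adjusted p = 0.201), and Pdgfra one of -0.48 (adjusted p = 0.670). Pdgfra was higher in liver tumour cells in 3 of 4 mice, mouse 1 being the exception. Without the peritoneal tumour library of mouse 1 its log2 fold change turned to 0.61 (adjusted p = 0.107). Pdpn, Lrat and Reln had too few counts to be tested. Of the matrix genes 10 of 14 were lower in liver tumour cells (median -1.88), among them Sparc (-1.10, adjusted p = 0.0115) and Col1a1 (-3.07, adjusted p = 0.0161), as were 3 of 8 pan-fibroblast genes tested. Over the 10 contractile, 8 stellate cell and 4 PDGF ligand genes tested, the median log2 fold changes were -1.03, -0.51 and -0.31.

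The fourth comparison asked whether the site difference itself differed between stroma and tumour cells. Of 9 members tested 1 was called, against 6.46% of all 15331 genes in either direction. It was Pdgfra, whose log2 fold change of liver over peritoneum in stroma, less that in tumour cells, was -2.76 (SE 0.64, adjusted p = 0.00903). Over the alternatives this value ran from -3.91 to -2.51, with adjusted p from 1.60e-06 to 0.0222. In the separate fits, the log2 fold change of liver over peritoneum was -3.30 in stroma and -0.48 in tumour cells. For the other 8 members adjusted p was 0.263 to 0.911. Without the peritoneal tumour cell library of mouse 1, Reln was called as well (-2.73, adjusted p = 0.0285). A p that misses the threshold does not show that the site differences were equal.

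The cultured cells carried little of these genes. Pdpn had 0 counts in all 9 libraries, Lrat and Postn had 1 count each, Fap 2 and Thy1 3 over the 9 libraries. Pdgfra was at 0.454, 0.138 and 0.222 CPM in BMEL WT, 0.252, 0.230 and 0.0810 CPM in RasLOW and 0.379, 0.344 and 0.496 CPM in RasHIGH cells. All 9 values were below those of the liver tumour cells, 2.76 to 3.62 CPM, which is a description only, since the cultured and sorted cells were not handled alike. Des was at 0.349, 0.861 and 0.888 CPM in BMEL WT, 0.180, 0.164 and 0.122 CPM in RasLOW and 0.341, 0.301 and 0 CPM in RasHIGH cells. Acta2 had 88, 29 and 1 counts in the BMEL WT libraries, the first and the second of which ran on another lane than the third, and 0 in all RasLOW libraries. None of the members had enough counts to be tested between the BMEL WT, RasLOW and RasHIGH cells. With no filter on low counts Acta2 was called lower in RasHIGH than in BMEL WT cells (log2 fold change -4.91, adjusted p = 0.0400). Its counts in the RasHIGH libraries were 2, 1 and 0, which overlap that of the third BMEL WT library. In the same setting the difference of RasLOW from BMEL WT cells was larger but not called (-8.27, adjusted p = 0.0571). All RasLOW and RasHIGH libraries ran on the lane of the third BMEL WT library, and the part of the lane was not tested.

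The genes whose pattern over the 16 sorted libraries was most like that of each member were found by Pearson's r of log2(CPM + 1) among 13340 genes. These libraries fall into stroma and tumour cells, which alone gives high values, so r serves as a description. Pdgfrb was nearest to Col15a1, a basement membrane collagen (r = 0.998), and Acta2 to the same gene (r = 0.996). Des was nearest to Cd200 (r = 0.995) and Cygb. Postn was nearest to Col8a1 (r = 0.996) and Thbs2, a matrix thrombospondin. Fap was nearest to Smoc2 (r = 0.995) and Cthrc1, Thy1 to Fstl1 (r = 0.997) and Lox, and Pdgfra to Efs (r = 0.995), Gpx7 and Boc. Pdpn was nearest to Crispld2 (r = 0.994), Reln to Ecm2 (r = 0.990), and Lrat, with its low counts, to Cdo1 (r = 0.901).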

How the data were processed

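The 10 members and all gene lists were chosen with earlier results of these data known. The authors sequenced the libraries on an Illumina HiSeq2500, and their methods name TopHat2, alignment to mm9 and DESeq. The submitters' processing notes name FastQC, Bowtie 0.12.2 and the builds mm8 and mm10, and the counter, the annotation and the strand setting are not given in the sources used here. The values are deposited raw counts per gene for 25 libraries, and all columns were matched to samples by the labels. No library was left out.

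Counts were tested in R 4.3.3 with edgeR 4.0.16, with TMM factors, filterByExpr (minimum count 10, minimum total count 15) and the quasi-likelihood test, for the libraries of each comparison, with p adjusted by Benjamini-Hochberg over every gene tested. Each fold change is of the first group over the second. Levels are CPM scaled by TMM factors over the 25 libraries. Depth was 20818989 to 51241336 counts, and counting error alone sets the floors of 3 counts. The scripts were tested on simulated data. Named genes of a list are those called with the lowest p, up to 3. Exceptions are the uncalled stellate cell genes, chosen after their values were seen, and Cd53 and Cdh5, named because they stood apart from their lists.

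The labels give the mouse of each sorted library, which pairs the sites. The correlation of deviations within the 4 mice was -0.01, 0.24, 0.23 and 0.41 for stroma and averaged -0.03 for tumour cells, 0.26 for tumour cells and stroma of the liver and 0.22 for those of the peritoneum. The p-values of the main fits measure the spread between the libraries of a group, which for the sorted cells come from these 4 mice. The mouse was not a term in the main fits. The alternatives were DESeq2 1.42.0, other scaling, other filters, the study's rule on unadjusted p, the mouse or replicate number as a block, and each library left out. Sequencing lane as a term was added after seeing the data. Sequences are from RefSeq. Gene positions are from the GENCODE annotation of NCBIM37 (mm9), and motifs were searched with Python 3.11.15.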

Additional observations from a re-analysis of the deposited data

Results flagged for a closer look

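Within a group of 4, the distance of the highest or lowest library from its nearest neighbour was compared with Dixon's critical value for 4 values, which chance passes in about 1 in 20 groups, and 38 such tests were run on the members. The peritoneal tumour cell library of mouse 1 stood far above the others for 5 members: Pdgfra at 11.1 CPM (nearest 2.26), Pdgfrb at 14.2 CPM (nearest 4.63), Des at 3.62 CPM (nearest 0.664), Pdpn at 3.15 CPM (nearest 0.544) and Postn at 62.9 CPM (nearest 13.1). The liver tumour cell library of mouse 4 stood above the others for Pdgfrb, at 1.54 CPM (nearest 0.876), and for Acta2, at 1.66 CPM (nearest 1.10). The liver stroma library of mouse 3 stood above the others for Pdpn, at 29.5 CPM (nearest 10.7).

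The site difference of Pdgfra, as log2 fold change of liver over peritoneum, differed between stroma and tumour cells by -2.76 in edgeR's quasi-likelihood test of the difference itself.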

How the results depend on the processing

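The calls of the members between the stroma of the sites and between tumour cells and stroma kept their direction under every alternative run. Between the stroma of the sites, Des was also called without the liver stroma library of replicate 1 (-1.01). Lrat, not tested in the main fit, was called lower in liver tumour cells than in liver stroma under some alternatives. These were no filter on low counts (-4.36), and leaving out the liver tumour cell (-4.05) or liver stroma (-4.74) library of replicate 4. Between tumour cells of the sites 5 members were called. With the study's rule on unadjusted p the count was 6, Des (-1.74) being the addition, and it was 1 with the mouse as a replicate block and 1 to 5 with each library left out, and in the block Pdgfra turned to 0.0236. With each library left out Pdgfra ran from -0.74 to 0.61. The test of the difference between site differences called 1 member, and 1 to 2 with each library left out. There Postn turned to -0.27 in the replicate block and to -0.26 with lane as a term, and with each library left out Postn ran from -0.81 to 0.71, Pdpn from -1.14 to 1.57 and Des from -0.34 to 1.34. Between RasHIGH and BMEL WT cells the count was 1 with no filter on low counts and 0 to 1 with each library left out, the call being Acta2. For these changes the cause was not tested. DESeq2 gave no adjusted p for Pdgfra and Fap between tumour cells of the sites and for Postn between tumour cells and stroma of the peritoneum. The replicate block changed no other call. Between cultured groups replicate numbers do not pair the samples: deviations correlated by 0.07 for RasHIGH and BMEL WT, -0.15 for RasLOW and BMEL WT and -0.31 for RasHIGH and RasLOW, and the block left 0 members called. Lrat and, in tumour cells, Fap, Pdpn and Reln were limited by depth.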
